A study of Mus musculus with 6 samples.

Results

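Zfp503, Pde10a and Bcl11b are 3 genes known for their expression in striatal projection neurons, and they were the 3 of 466 genes taken here from a table of genes that the authors had selected on a difference between Piezo1-deleted and control microglia of 5×FAD mice. Microglia are the resident macrophages of the brain, and 5×FAD is a transgenic mouse line that models Alzheimer's disease through transgenes driven in neurons by the Thy1 promoter. Zfp503 and Pde10a stood higher in the knockout samples and Bcl11b lower. The members were chosen by name, with these directions already known, so their differences are given as a description with no test.

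The samples were poly(A) RNA-seq libraries of microglia freshly isolated from adult brain, 3 of each genotype, and the strain was given as C57BL/6N. The knockout mice (Piezo1MGKO; FAD) carried the 5×FAD transgenes, floxed Piezo1 and the tamoxifen-inducible Cx3cr1CreER-EYFP allele, and the controls (Piezo1fl/fl; FAD) were littermates with the 5×FAD transgenes and floxed Piezo1, for which no Cre allele was named. All mice were male and had tamoxifen by intraperitoneal injection, at 20 mg/kg on 4 days, when 4.5 weeks old. Piezo1, a mechanically gated cation channel gene, was deleted through a Cre driver that is also active in other macrophages, and loss of Piezo1 and presence of the Cre allele cannot be told apart here. The labels do not say how many mice gave each sample, so spreads are between samples and may in part be technical.

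Zfp503, also known as Nolz1, encodes a zinc finger repressor of the NET family that acts in the developing striatum. Pde10a encodes a phosphodiesterase that hydrolyses cAMP and cGMP, and it is abundant in medium spiny neurons, the projection neurons of the striatum. Bcl11b, also known as Ctip2, encodes a C2H2 zinc finger transcription factor that is needed for the differentiation of medium spiny neurons, of corticospinal neurons and of T cells. A poly(A) library of isolated microglia can hold transcripts of these genes from microglia or from other cells in the preparation. In such bulk samples, fewer cells of a type and less RNA per cell cannot be told apart.

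The 3 genes differ widely in structure (authors' coordinates, GRCm38, on which GENCODE M21 gave the same starts and ends). Zfp503 (ENSMUSG00000039081, minus strand, chr14:21983959-21989601) spans 5.64 kb with 3 exons and 1 annotated transcript. Pde10a (ENSMUSG00000023868, plus strand, chr17:8525372-8986648) spans 461 kb, of which 2.79% is exonic in 33 merged exons of 14 annotated transcripts. Bcl11b (ENSMUSG00000048251, minus strand, chr12:107910403-108003602) spans 93.2 kb with 4 merged exons of 3 transcripts. The 3 genes annotated on the opposite strand within Pde10a touch none of its exons, and no annotated gene overlaps Zfp503 or Bcl11b. Values are for whole genes, so the transcripts of Pde10a are summed.

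The sequences just before the transcription starts are shown to set Zfp503 and Pde10a, the pair that stood higher together, beside Bcl11b. They are from RefSeq promoter windows of GRCm38.p6, 5′ to 3′ on the gene's strand, cut where an annotated exon of the gene begins. Capitals mark CpG dinucleotides. One RefSeq start is shown of Pde10a, for which GENCODE has 13 transcript starts, and the Bcl11b stretch is short because it is cut early. The Zfp503 stretch is chr14:21989602-21989851 (minus strand), the Pde10a stretch is chr17:8801495-8801692 (plus strand, the first of 2 starts in the RefSeq table) and the Bcl11b stretch is chr12:108003603-108003664 (minus strand).
Zfp503: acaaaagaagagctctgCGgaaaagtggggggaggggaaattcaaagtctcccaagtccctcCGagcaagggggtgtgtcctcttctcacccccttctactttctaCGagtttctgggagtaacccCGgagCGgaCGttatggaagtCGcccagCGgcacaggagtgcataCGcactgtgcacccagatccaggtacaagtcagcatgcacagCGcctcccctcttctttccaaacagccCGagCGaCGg
Pde10a: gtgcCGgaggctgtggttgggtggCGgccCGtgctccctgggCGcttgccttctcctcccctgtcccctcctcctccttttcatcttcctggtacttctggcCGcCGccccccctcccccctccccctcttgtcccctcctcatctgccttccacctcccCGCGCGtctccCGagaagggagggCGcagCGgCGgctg
Bcl11b: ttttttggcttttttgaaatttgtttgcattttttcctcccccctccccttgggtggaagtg

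The Zfp503 stretch of 250 bases and the Pde10a stretch of 198 bases each hold 13 CpG dinucleotides, and the Bcl11b stretch of 62 bases holds 0. Over the whole windows of 300 bases, Zfp503 has 19 CpG dinucleotides, Pde10a 23 at this start and 5 at its other start, and Bcl11b 9, against a median of 7 over all 32841 windows. All these windows but that of the other Pde10a start thus lie above the median, Bcl11b included. At the starts shown, Zfp503 and Pde10a have more CpG dinucleotides than Bcl11b, while the other Pde10a start has fewer. The GC content of the windows is 58.3% for Zfp503, 71.3% for Pde10a at this start and 56.7% at its other start. It is 43% for Bcl11b, against a median of 52.7% over all windows. Whether promoter sequence bears on the direction of the members was not tested. A GC box (GGGCGG, either strand) occurs once in each Pde10a window and not in the windows of Zfp503 and Bcl11b, and 35.7% of all windows hold one. The core of the cAMP response element (TGACG, either strand) is in none of these windows, and 20.8% of all windows hold it. These are descriptions of sequence, and promoter activity was not measured in these samples.

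Zfp503 was the most abundant of the 56 genes listed as higher. It had 272, 208 and 470 normalised reads (read counts divided by the authors' size factor of the sample) in knockouts 1, 2 and 3. In controls 1, 2 and 3 it had 164, 106 and 141 normalised reads. All knockout samples lay above all controls, with knockout 3 well above the rest and the lowest knockout 1.27-fold above the highest control. The mean was 317 ± 137 normalised reads in knockouts and 137 ± 29.3 in controls (SD, n = 3 each), 2.32-fold apart. On the scale of log2(value + 1) the means differed by 1.14 (SE 0.55), and by 0.82 (SE 0.65) without knockout 3. Zfp503 was read from 204 to 465 reads per knockout sample and 109 to 167 per control, so counting alone gives a coefficient of variation of 4.64% to 9.58% per sample. The observed coefficient of variation was 43.1% among knockouts and 21.4% among controls, in both groups above every counting value.

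Pde10a had 42.3, 35.7 and 70.8 normalised reads in knockouts 1, 2 and 3. It had 15.7, 16.5 and 25.4 normalised reads in controls 1, 2 and 3. Its groups did not overlap either, and replicate 3 was the highest sample of each group. The lowest knockout was 1.40-fold above the highest control. The mean was 49.6 ± 18.7 normalised reads in knockouts and 19.2 ± 5.41 in controls (SD, n = 3 each), 2.58-fold apart. On the log2(value + 1) scale the means differed by 1.30 (SE 0.65), and by 1.01 (SE 0.79) without knockout 3. The 16 to 26 reads per control sample carry a counting coefficient of variation of 19.6% to 25%, about the size of the 28.2% observed among controls. Among knockouts, with 35 to 70 reads, the observed value was 37.6% and the counting value at most 16.9%.

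Bcl11b had no read in any knockout sample. It had 0.981, 0.970 and 18.6 normalised reads in controls 1, 2 and 3, which are 1, 1 and 19 whole reads. Thus 90.5% of all Bcl11b reads came from control 3, which lay 18.9-fold above the median control. The exact Poisson 95% interval of the 19 reads is 11.4 to 29.7 and that of a single read is 0.0253 to 5.57, counting error only. A library with 0 reads allows up to 3 reads (a one-sided limit, used here as the floor, while the upper end of the two-sided Poisson 95% interval of 0 reads is 3.69), so controls 1 and 2 cannot be told from the knockouts at this depth. Against that floor of 3 reads in each knockout library, the control mean of 6.85 ± 10.2 (SD, n = 3) was 2.27-fold higher. This ratio takes in no error of the control mean, so it is not a strict lower bound. Without control 3 the control mean of 0.976 lies under the floor and gives no fold. On the log2(value + 1) scale the means differed by -2.09 (SE 0.95), and by -0.98 (SE 0.08) without control 3, where the small error comes from 1 read in each remaining control against 0 in each knockout.

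**Figure D1:**
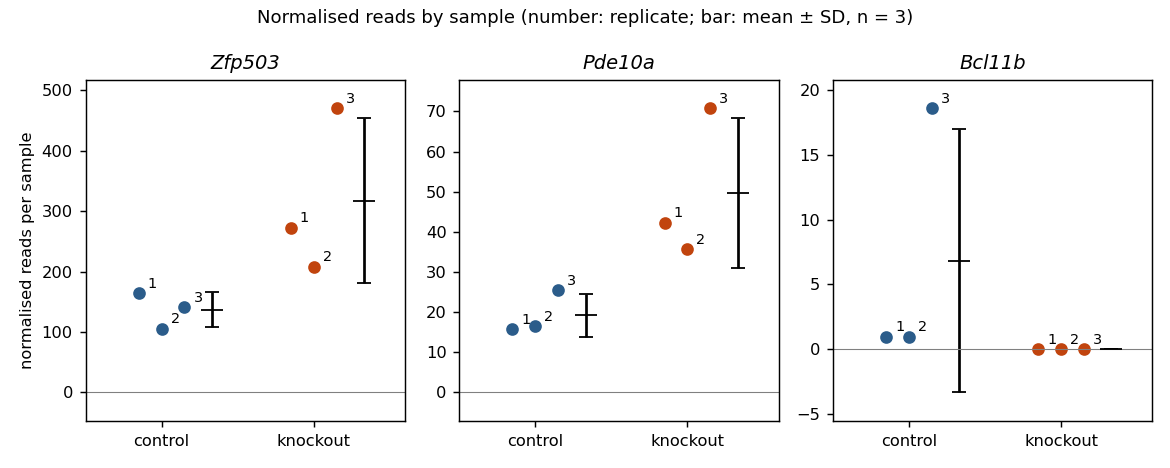
Normalised reads of Zfp503, Pde10a and Bcl11b in each sample (points, numbered by replicate), with the mean ± SD of each group of 3 samples. Zfp503 and Pde10a are highest in knockout 3 at 470 and 70.8 normalised reads, and Bcl11b stands at 18.6 in control 3 alone.

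These are the values on which the genes came to be listed. In the authors' deposited table each of the 466 genes had an unadjusted p below 0.05 and at least a doubling or halving of its level (a log2 fold change beyond 1 in size), and 14 of them, 3% of the table, passed an adjusted p of 0.05 there. None of the 3 members was among these 14. In the authors' deposited table Zfp503 had a log2 fold change of 1.21 with adjusted p = 0.138, between Vgll3 (0.104) and Pdpn (0.156) in the order of p. The authors' deposited table gave Pde10a a log2 fold change of 1.37 with adjusted p = 0.819, with Yap1 (0.819) and Thy1 (0.821) beside it. The authors' deposited table gave Bcl11b a log2 fold change of -5.21 with adjusted p = 0.9998, a value shared by its neighbours D630023F18Rik and Lrrn2. The fold change given there for Bcl11b is set against a group with no reads and is no bound.

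Within their direction the members took different places. Among the 56 higher genes Zfp503 ranked 1 by mean level and 1 by the authors' p, but 49 by the size of the authors' fold change. Pde10a ranked 13 by level, 6 by the authors' p and 44 by fold change. Both thus belong to the better measured genes of the higher group, which had a median level of 10.1 normalised reads. Bcl11b ranked 358 of 410 lower genes by level and 185 by the authors' p.

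Groups without overlap were seen for 47 higher genes, 10.1% of the 466, and for 211 lower genes, 45.3%. All 3 members were among them, and since the authors had listed every gene on this same contrast nothing is read from that count. A limma fit over all 466 genes with Benjamini-Hochberg adjustment called 0 of them (0%) at an adjusted p of 0.05, with 245 at an unadjusted p under 0.05. edgeR called 0 and DESeq2 49, and none of the 3 members was called by any of these tools.

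**Figure D2:**
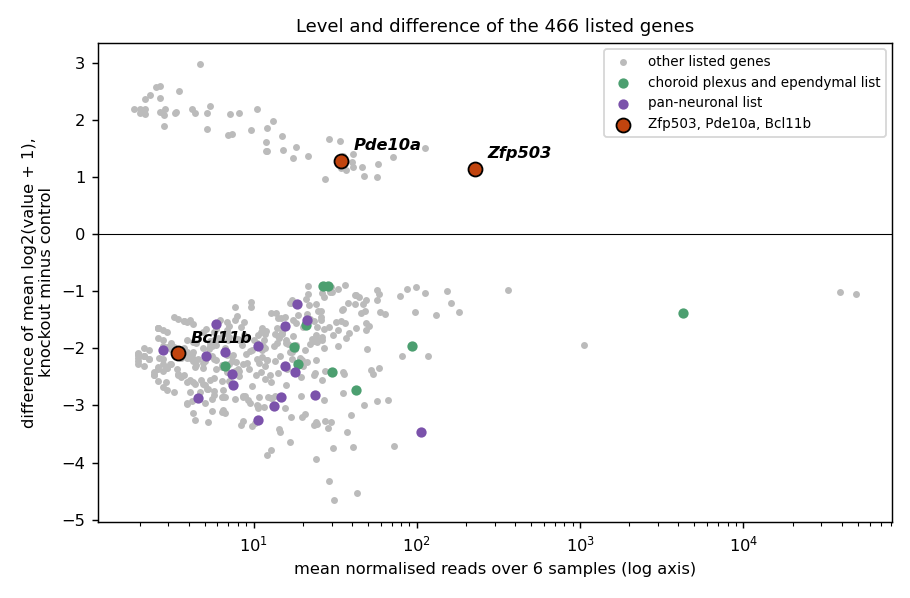
Difference of mean log2(value + 1), knockout minus control, against the mean normalised reads over 6 samples (log axis) for all 466 listed genes, with the members and 2 cell type lists marked. Zfp503 is the most abundant higher gene at a difference of 1.14, and Bcl11b lies among low-level lower genes at -2.09.

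Levels of different genes were compared per kilobase of exon. In the knockout, Zfp503 stood at 75.2 ± 32.4 and Pde10a at 3.86 ± 1.45 normalised reads per kilobase (SD, n = 3). In controls, Zfp503 stood at 32.5 ± 6.95, Pde10a at 1.49 ± 0.421 and Bcl11b at 0.844 ± 1.25 normalised reads per kilobase (SD, n = 3). Zfp503 was above the other members in every sample. Pde10a and Bcl11b did not keep one order among the controls: control 3 had 1.98 of Pde10a and 2.29 of Bcl11b per kilobase, while controls 1 and 2 had 1.22 and 1.28 of Pde10a and 0.121 and 0.120 of Bcl11b.

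Zfp503 and Pde10a varied in parallel across the knockouts, both in the order 3, 1, 2. Across the controls the order was 1, 3, 2 for Zfp503 and 3, 2, 1 for Pde10a. The ratio of Zfp503 to Pde10a normalised reads was 6.44, 5.83 and 6.64 in knockouts 1, 2 and 3. In controls 1, 2 and 3 it was 10.4, 6.41 and 5.54. The knockout ratios lay close together and inside the range of the controls, in which control 1 stood apart.

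Which listed genes had the most similar pattern was read from the correlation of log2(value + 1) over the 6 samples, among protein-coding genes with a mean of at least 10 normalised reads. These samples share the group difference on which every gene was listed, so a high value is in part built in and is a description only. The genes named are the highest of 214 or 215 compared over 6 samples, so picking alone also raises the values. For Zfp503 the 3 closest were Xirp1 (0.92), Pde10a (0.92) and Adgb (0.82). For Pde10a they were Adgb (0.95), Xirp1 (0.95) and Zfp503 (0.92). Xirp1 encodes an actin-binding protein of striated muscle and Adgb the globin-family protein androglobin. In normalised reads, Xirp1 stood at 40.3, 52.1 and 77.9 in knockouts 1, 2 and 3, beside control values of 24.5, 18.4 and 29.4. Adgb stood at 43.3, 57.2 and 93.1 there, beside control values of 19.6, 22.3 and 42.1, so that these genes, like Zfp503 and Pde10a, were highest in knockout 3. Of the 56 higher genes, 24 were highest in knockout 3, 19 in knockout 1 and 13 in knockout 2.

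With the group means taken out, so that only the deviations of samples within their group count, the closest genes to Zfp503 were Xirp1 (0.74), Pde10a (0.74) and Tspoap1 (0.71). For Pde10a they were the fractalkine receptor gene Cx3cr1 (0.92), the cathepsin K gene Ctsk (0.89) and Adgb (0.88). By rank correlation, Cx3cr1 stood at 0.94, Ctsk at 0.77 and Adgb at 0.43 with Pde10a. All are again the highest of 214 genes over 6 samples, so they are a description only. Cx3cr1 and Ctsk were listed as lower in the knockout, so Pde10a and these genes differed in opposite directions between the groups while being highest in replicate 3 of each. Cx3cr1 stood at 32081, 27906 and 35698 normalised reads in knockouts 1, 2 and 3, beside control values of 58569, 61450 and 79363. Its locus carries the Cre cassette.

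Bcl11b was closest to other genes. Over the 6 samples its closest genes were Cdh11 (0.98), Myl9 (0.98) and Dkk3 (0.97), and with the group means taken out they were Gas1 (0.98), Myl9 (0.97) and Cdh11 (0.96). Cdh11 encodes a cadherin of mesenchymal cells, Myl9 a myosin light chain of smooth muscle and other contractile cells, Dkk3 a secreted Dickkopf-family protein and Gas1 a membrane protein that binds Hedgehog ligands. Control values of Myl9 were 0.981, 1.94 and 66.5 normalised reads in replicates 1, 2 and 3, and those of Gas1 were 8.83, 9.70 and 99.8. Those of Dkk3 were 2.94, 7.76 and 89.0. Each of these genes, like Bcl11b, was high in control 3 alone. Control 3 was the highest control for 224 of the 410 lower genes, and for 56 of the 70 lower genes that had no read in any knockout sample, of which Bcl11b is one. The part of control 3 in the Bcl11b difference can be read from its values above. What set that sample apart was not tested.

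The other genes that mark striatal projection neurons were taken from a list of 39. Only the 3 members of it were listed, 2 as higher and 1 as lower. The authors had listed 466 of the 19107 genes in their adjustment, 2.44%, with 56 (0.293%) as higher and 410 (2.15%) as lower. Since the members were picked for being striatal genes in this table, their share of the list is not a result. The other 36 genes include the dopamine receptor genes Drd1 and Drd2, the DARPP-32 gene Ppp1r1b, the adenosine receptor gene Adora2a and the enkephalin gene Penk. Genes outside the table were not analysed here, so the 3 members could not be set beside the defining markers of the striatum.

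Pan-neuronal markers were listed for 18 of 51 genes (35.3%), beside 2.44% of all genes in the authors' adjustment. The list was chosen with earlier results of these data known, so nothing is read from this share. All 18 were listed as lower, against 410 of 466 listed genes in all. Their median log2 difference was -2.36, beside -1.99 for all 466 listed genes, and limma called 0 of them. The vesicle fusion gene Snap25 stood at 2.95, 15.3 and 1.01 normalised reads in knockouts 1, 2 and 3, beside control values of 16.7, 34.9 and 71.4. The list also holds genes that not all neurons share, among them the glutamate transporter gene Slc17a7. Slc17a7 stood at 0.983, 7.15 and 0 in knockouts 1, 2 and 3, beside control values of 9.81, 15.5 and 46.0. Summed over the 18 genes, knockouts 1, 2 and 3 held 68.8, 142 and 21.2 normalised reads and controls 1, 2 and 3 held 191, 328 and 1090. Thy1, at 542 normalised reads, was the largest single part of the control 3 sum. Without Thy1 the sums were 62.9, 119 and 20.2 in knockouts, beside control sums of 174, 285 and 548. Control 3 was the highest control for 16 of the 18. All 18 were still lower without control 3, at a median of -1.90, and without controls 2 and 3 together, at -1.67. The authors had listed these genes on this same contrast, so a kept direction is not independent support.

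This sum was set beside the members sample by sample. It covers only pan-neuronal genes that were listed on this contrast, so low knockout sums and high control sums are in part built in. It is no measure of all neuronal RNA, and the cells that gave its reads were not identified. Control 3 held the highest pan-neuronal sum, nearly all Bcl11b reads and the highest Pde10a of the controls, with Zfp503 between the other controls. Knockout 3 held the lowest pan-neuronal sum, with 9 of the 18 genes at 0, Syt1, Grin1 and Slc17a7 among them. It had the most Zfp503 and the most Pde10a. Among the controls the neuronal sum ranged from 191 to 1090 and Zfp503 from 106 to 164 normalised reads. The part of neuronal RNA in the level of any of the 3 members was not tested.

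**Figure D3:**
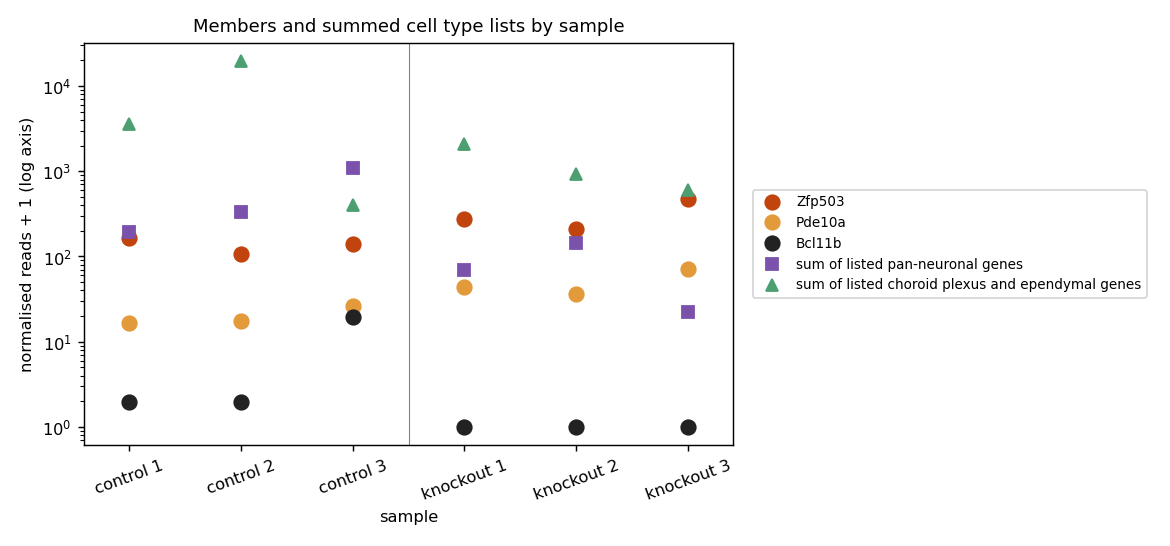
Normalised reads + 1 (log axis) in each sample for the 3 members (circles) and for the sums of 18 listed pan-neuronal genes (squares) and 10 listed choroid plexus and ependymal genes (triangles). Knockout 3 has the highest Zfp503 and Pde10a and the lowest neuronal sum, and control 3 has the highest neuronal sum and the highest Bcl11b.

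Markers of other cells that could hold the members were also read. Choroid plexus and ependymal genes were listed for 10 of 19 (52.6%), beside 2.44% of all genes in the authors' adjustment. That list, too, was chosen with earlier results of these data known, so its share is not a result. All 10 were listed as lower, as were 410 of the 466 listed genes, and all 10 were highest in control 2. They were listed on this contrast, so their direction is in part built in. Their median log2 difference was -1.97, but without control 2 it was -1.03 and 7 of the 10 were lower. Their summed normalised reads were 2093, 925 and 600 in knockouts 1, 2 and 3, beside control sums of 3581, 19678 and 399. Control 2 had the lowest Zfp503 of all samples and 1 Bcl11b read. Which cells gave the reads of the members was not tested. Of 28 markers of T and NK cells, of which T cells are also known for Bcl11b, 0 were listed. Of 16 markers of cortical and hippocampal projection neurons, a list that does not hold Slc17a7, 0 were listed as well. With 2.44% of all genes listed, such counts are uninformative, and an unlisted gene may still be expressed. The microglia list gave 1 of 26, Cx3cr1, so the labelled cell type could be checked by that gene alone, which was abundant in all 6 samples.

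Few relatives and partners of the members were in the table, which held 2.44% of all genes in the adjustment. Of 24 cyclic nucleotide phosphodiesterase genes, 3 (12.5%) were listed: Pde10a as higher, and Pde1a and Pde1c, which encode calcium-dependent phosphodiesterases, as lower. Pde1a stood at 0, 0 and 1.01 normalised reads in knockouts 1, 2 and 3, beside control values of 0.981, 2.91 and 14.7. Pde1c had the same knockout values and 8.83, 3.88 and 2.94 in controls, so the pair differed in which control was highest. Of 34 other genes of cAMP and cGMP signalling, the pathway that Pde10a limits, 0 were listed. Bcl11b was the 1 listed gene of 26 (3.85%) in a list of BCL11 factors with subunits of the NuRD and BAF complexes, which bind BCL11 proteins. Zfp503 was the 1 listed gene of 8 (12.5%) in a list of NET family and Groucho corepressor genes, which holds its paralogue Zfp703. Each of these shares includes the member for which the list was made, so nothing is read from them.

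Leaving out each sample in turn kept the direction of all 3 members. The log2 difference of Zfp503 ranged from 0.82 without knockout 3 to 1.40 without knockout 2. That of Pde10a ranged from 1.01 without knockout 3 to 1.51 without control 3. Bcl11b ranged from -2.64 without control 2 to -0.98 without control 3, and the knockouts, all at 0, did not move it. The pseudocount moved it as much, from -2.79 with 0.5 to -0.92 with 5. The members were listed on all 6 samples, so a kept direction is not independent support.

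**Figure D4:**
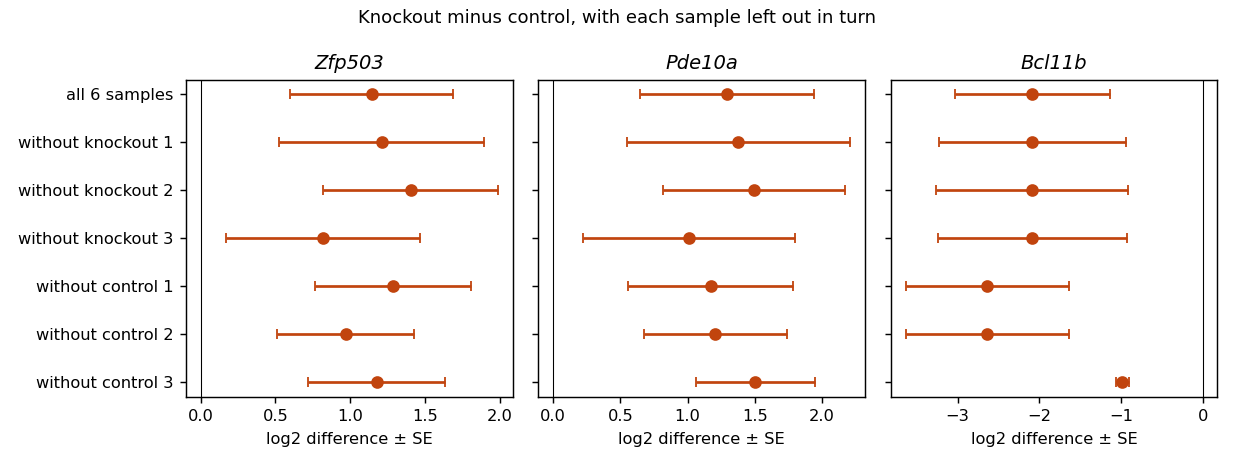
Log2 difference ± SE (limma, knockout minus control) of each member with all 6 samples and with each sample left out in turn. Zfp503 and Pde10a are smallest without knockout 3, at 0.82 and 1.01, and Bcl11b is closest to 0 without control 3, at -0.98.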

How the data were processed

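Poly(A) RNA of 6 samples was sequenced, per the labels' protocols. The submitters' processing notes name the build GRCm38 and, without roles, the tools RSEM 1.2.30, HISAT2, cutadapt 1.11, R 3.6.1 and DESeq2. The authors deposited a normalised read count per gene and sample (a signal value that is never negative), with their log2 fold change, p-value and adjusted p-value, for 466 selected genes. All values (100%, tolerance 1e-06) were whole multiples of 1 read, so whole reads and size factors (0.979 to 1.03) were recovered. Reads in the listed genes ranged from 49643 to 180760 per sample, which is not library depth. The depth of the whole libraries is unknown here. The number of genes in the authors' adjustment, 19107, follows from the adjusted p and p of the first gene.

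Differences and standard errors are from limma 3.58.1 (trended variance, R 4.3.3) on log2(value + 1), fitted on all 466 genes with no filter and Benjamini-Hochberg adjustment. They understate changes of low genes. edgeR 4.0.16 (quasi-likelihood) and DESeq2 1.42.0 were run on recovered reads. All 3 were tested on simulated data. Standard deviations are over 3 samples. The sources used here do not state whether strand was used in counting. The members and the 10 gene lists were chosen with earlier results of these data known. Named genes were the members, listed genes of these lists, the 3 protein-coding genes most correlated with each member by 2 measures, and the neighbours of each member in the authors' order of p.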

Additional observations from a re-analysis of the deposited data

How the results depend on the processing

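Over the alternatives, which left out each sample in turn, changed the pseudocount, the scaling, the low-value filter or the tool, or added a replicate block, no member changed direction. Leaving out samples gave differences of 0.82 to 1.40 for Zfp503, 1.01 to 1.51 for Pde10a and -2.64 to -0.98 for Bcl11b. With a pseudocount of 0.5 or 5 the difference was 1.15 or 1.12 for Zfp503, 1.32 or 1.14 for Pde10a and -2.79 or -0.92 for Bcl11b. Rescaling by median ratios over the table, which shifted the median of all genes by 1.03, gave 2.71 for Zfp503 and 2.80 for Pde10a, each with a limma adjusted p of 0.0485. With the pseudocount, genes near 0 shift less than abundant genes, so this median shift does not measure how far Zfp503 and Pde10a were moved. Most listed genes were selected as lower, so the shift, and with it the larger differences of Zfp503 and Pde10a, follows from the selection. The fold change of Bcl11b was -5.81 with edgeR and -5.21 with DESeq2, which set it against no reads. Bcl11b has a mean under 10 and gave no value under the low-value filter. A limma adjusted p of 0.00539 was given for Bcl11b without control 3, where each group has nearly identical values of 1 or 0 reads.

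The number of genes called over the table was 0 to 196 when samples were left out (196 without control 1, 36 without control 3), 120 with a pseudocount of 0.5, 56 after rescaling, 1 of 236 with the low-value filter and 49 with DESeq2. Without controls 2 and 3 together, an alternative chosen after seeing the data, it was 54. Same-numbered samples did not deviate together (correlations of -0.04, -0.04 and 0.07), and a replicate block, under which 4 genes were called, left the members' differences as they were and gave standard errors of 0.66, 0.85 and 0.99. The few reads of Bcl11b limit what can be said of it.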
